A study of Mus musculus with 5 samples.

Results

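The genes described here encode the enzymes that make melanin and the proteins of the melanosome, the organelle in which melanin is made and stored: Tyr, Tyrp1, Dct, Pmel, Mlana, Oca2, Slc45a2, Slc24a5, Gpr143 and Tspan10. These 10 genes, of 22907 genes named on the arrays, were taken by a fixed list of symbols, and each probe was assigned to a gene by its RefSeq accession. They were read by 14 probes: Tyr, Dct, Oca2 and Gpr143 had 2 probes each, and the other 6 genes had 1. In all, 13 of the 14 probes were well above background on all 5 arrays, and the exception was the dimmer probe of Tyr.

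The cells were B16F1, a mouse melanoma line, and RNA was measured on 5 one-colour (Cy3) Agilent expression arrays in 4 groups. Wild-type B16F1 cells received vehicle (1 array), for which the labels give no time, or TGF-β1 at 10 ng/ml for 2 days (1 array). Others received TGF-β1 at that dose and time together with 10 µM CCG1423, an inhibitor of the serum response factor coactivator MRTF (1 array). Cells labelled as knockouts of Tmsb4x, the gene of the actin-monomer-binding peptide thymosin β4, received TGF-β1 at the same dose and time (2 arrays, 1 for each of 2 knockout clones). The design allows 3 questions to be put to these genes: how they differed with TGF-β1, how they differed when the MRTF inhibitor was added, and how they differed in the Tmsb4x knockout. The treatment field of the array with both agents names CCG1423 alone, while its title and description name both agents. The series title speaks of a knockout and its design text of a knockdown. No knockout array without TGF-β1 and no array with CCG1423 alone was analysed here, and each knockout array is a single clone, so clone and genotype cannot be told apart in either of them.

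Tmsb4x itself had log2 levels of 5.05 on the vehicle array, 7.12 with TGF-β1, 6.79 after CCG1423 was added, 5.44 in knockout clone 1 and 4.28 in clone 2. A level here is the log2 processed signal of a probe minus the 75th percentile of its array. Both clones were below the wild type with TGF-β1, by log2 differences of -1.68 and -2.84, with an adjusted p of 0.0857 in limma's test. The files do not say whether the probe lies in the targeted sequence. The 75th percentile of the signal ran from 230 on the CCG1423 array to 329 on that of clone 2, and 48.2% to 53.8% of probes were well above background. Of 6 melanocyte markers, Mitf, Sox10, Pax3 and Mc1r were well above background on all arrays, Kit on 4 and Ednrb on none. Their summed signal, not scaled between arrays, was 72132, 79531, 39930, 75634 and 89945 in the order vehicle, TGF-β1, both agents, clone 1 and clone 2. In scaled levels, both agents differed from TGF-β1 alone by -1.23 for Mitf, -1.15 for Mc1r, -0.56 for Kit, -0.16 for Sox10 and -0.03 for Pax3. Of the markers of other cell types, 0 of 4 fibroblast, 0 of 4 endothelial, 1 of 4 keratinocyte (Trp63) and 2 of 5 immune markers (Cd3e and Csf1r) were well above background on all arrays, and Pdgfra, Dcn, Thy1, Cdh5, Kdr, Tek, Dsp, Ptprc and Adgre1 were so on none. The summed unscaled signals of those lists ran from 18.3 to 106 for fibroblast, 29.4 to 41.1 for endothelial, 1923 to 3580 for keratinocyte and 753 to 838 for immune markers. In a bulk measurement, fewer pigmented cells and less RNA of these genes per cell cannot be told apart.

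Melanin is made from tyrosine inside the melanosome. Tyrosinase, the product of Tyr, catalyses the first and rate-limiting steps, and the products of Dct and Tyrp1 act on later intermediates of the dark pigment, eumelanin. The product of Pmel forms the fibrils on which the pigment is laid down, and transporters and channels of the melanosome membrane set its pH and ion content. Many of these genes are known targets of MITF, the basic helix-loop-helix leucine zipper factor of the melanocyte lineage, which binds an E-box often preceded by T.

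Promoter sequences were available from RefSeq (build GRCm38.p6) for 6 of the 10 genes: Tyr, Tyrp1, Dct, Oca2, Slc24a5 and Tspan10. The 250 bases before each annotated start were searched on both strands for TCATGTG, the E-box bound by MITF with its preceding T, whose reverse complement is CACATGA. A match was found in 5 of the 6 genes, all but Oca2. Counted by gene in the same way, 3.72% of 27025 genes had one, and counted by promoter, 3.25% of all 32851 of the same length. The shorter core CATGTG, which lies inside the longer motif, was found in all 6, in 13.8% of all genes and in 12.3% of all promoters. The stretches that hold the longer motif are shown because it occurs both in genes with a wide range over the arrays (Tyr, Tspan10) and in genes with a narrow one (Tyrp1, Dct), although not in Oca2, whose range is also wide. Each is written 5′ to 3′ on the strand of its gene, and capitals mark the match. That of Tyr is chr7:87493513-87493579 on the minus strand, that of Tyrp1 chr4:80834121-80834212 on the plus strand, that of Dct chr14:118052346-118052442 on the minus strand, that of Slc24a5 chr2:125068069-125068126 on the plus strand and that of Tspan10 chr11:120442565-120442630 on the plus strand.
Tyr: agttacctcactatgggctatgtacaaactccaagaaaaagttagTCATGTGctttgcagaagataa
Tyrp1: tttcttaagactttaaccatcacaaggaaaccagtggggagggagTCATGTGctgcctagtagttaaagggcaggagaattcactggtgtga
Dct: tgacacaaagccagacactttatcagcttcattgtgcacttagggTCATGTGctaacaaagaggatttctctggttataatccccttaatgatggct
Slc24a5: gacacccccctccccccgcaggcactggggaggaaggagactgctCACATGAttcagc
Tspan10: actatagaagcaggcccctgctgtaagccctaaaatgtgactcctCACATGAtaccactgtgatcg

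In Tyr, Tyrp1 and Dct the match stood on the gene's own strand and began 22, 47 and 151 bases before the annotated start. In Slc24a5 and Tspan10 it stood on the other strand, 13 and 21 bases before the start. Dct held a further match on the other strand, 232 bases before the start. These matches describe letters in a window, and no binding was measured.

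**Figure D1:**
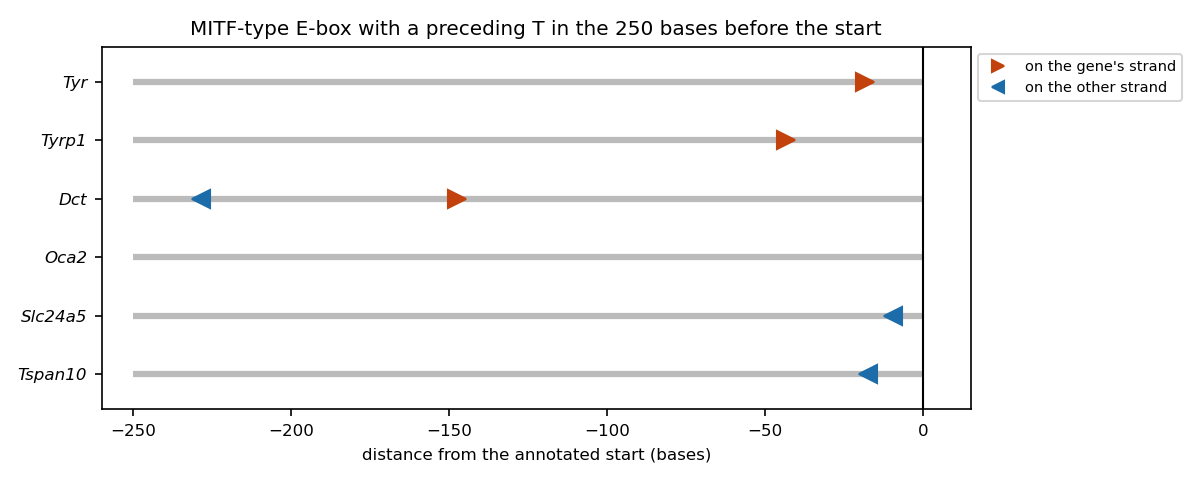
Positions of TCATGTG or its reverse complement in the 250 bases before the annotated start of the 6 genes with a RefSeq promoter; the x axis is the distance from the start in bases, and arrows point along the strand of the match. The matches of Tyr, Slc24a5 and Tspan10 lie within 22 bases of the start, and Oca2 has none.

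Among the enzymes, Tyr varied widely between arrays, while Tyrp1 and Dct hardly varied. The representing probe of Tyr, the brighter one, had levels of 0.91 with vehicle, -0.80 with TGF-β1, -1.65 with both agents, 1.11 in clone 1 and -0.18 in clone 2. Both wild-type arrays with TGF-β1 were thus below the other 3, and the knockout clones lay on either side of 0. The range over the arrays was 2.77 on the log2 scale. As unscaled processed signal, the same probe read 562, 169, 73.1, 608 and 291 in that order. The other probe of Tyr was well above background in clone 1 alone.

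Tyrp1, the tyrosinase-related protein that acts late in eumelanin synthesis, had levels of 9.05, 9.14, 8.89, 9.04 and 9.08 in the same order of arrays, a range of 0.25. Dct, dopachrome tautomerase, had levels of 9.89, 9.78, 9.60, 9.97 and 9.94, a range of 0.37, and its dimmer probe had a range of 0.41. For both genes the lowest array was that with CCG1423, and each of the other 8 genes had a wider range. No spot was saturated on any array. The signal of the brighter Dct probe was 57.8%, 49.8%, 35.2%, 59.5% and 64.1% of the brightest signal on its array.

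Pmel, the fibril protein of the early melanosome, had levels of 8.46 with vehicle, 8.27 with TGF-β1, 8.04 with CCG1423 added, 8.81 in clone 1 and 8.77 in clone 2. Both clones were above all 3 wild-type arrays. Mlana, also called MART-1, a small membrane protein of the melanosome that is involved in Pmel maturation, had levels of 7.98, 8.66, 7.01, 8.98 and 9.07. Its range was 2.06, set by the low array with CCG1423, and its highest levels were those of the clones.

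Of the transport proteins, Oca2 encodes a melanosomal chloride channel. Its representing probe had levels of -0.39, -2.56, -2.74, -2.39 and 0.04, so that vehicle and clone 2 were high and the other 3 arrays low. The other Oca2 probe gave the same split, with levels of -0.87, -2.99, -2.79, -2.57 and -0.55. Slc45a2, a transporter linked to melanosome pH, had levels of 4.96, 3.98, 3.53, 4.72 and 5.26. Slc24a5, a potassium-dependent sodium-calcium exchanger, had levels of 3.66, 3.27, 2.19, 3.60 and 4.01. Both had their lowest levels with CCG1423 and their highest in clone 2.

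Gpr143, a G protein-coupled receptor of the melanosome membrane that bears on melanosome size, had levels of 3.58, 2.87, 1.76, 2.86 and 4.24, and 0.64, -0.31, -1.40, -0.25 and 1.22 on its other probe. The probes put the arrays in nearly the same order, with CCG1423 lowest and clone 2 highest, and clone 1 next to the wild type with TGF-β1. Tspan10, a tetraspanin of pigment cells, had levels of 3.37 with vehicle, 1.92 with TGF-β1, -0.31 with both agents, 3.14 in clone 1 and 3.72 in clone 2. Its range of 4.03 was the widest of the 10 genes. Its unscaled signals ran from 186 to 4345. Vehicle and both clones were high, TGF-β1 was lower, and CCG1423 was lowest.

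All 10 genes had their lowest level on the array with TGF-β1 and CCG1423, as did 34.0% of 12058 genes well above background on all arrays. That held for all 10 when arrays were scaled on the median or by quantiles, and for 9 in the authors' deposited table, where Tyrp1 was lowest in clone 1. It held for 9 as well after normexp background correction and with the mean of a gene's probes, where Oca2 was lowest with TGF-β1 alone. The signal before scaling was lowest on that array for 62.3% of the 12058 genes. The highest level was in clone 2 for 6 genes (Mlana, Oca2, Slc45a2, Slc24a5, Gpr143 and Tspan10). It was in clone 1 for 3 (Tyr, Dct and Pmel) and with TGF-β1 for Tyrp1. Of the 12058 genes, 17.9% were highest in clone 2, 25.1% in clone 1 and 8.64% with TGF-β1. The split depended on the scaling. Clone 2 and clone 1 were highest for 8 and 1 genes by quantiles, 8 and 0 in the deposited table and 7 and 2 after normexp. The software's error estimate for a spot of the 13 probes was 10.0% to 15.2% of its signal, and each probe had 1 spot per array.

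**Figure D2:**
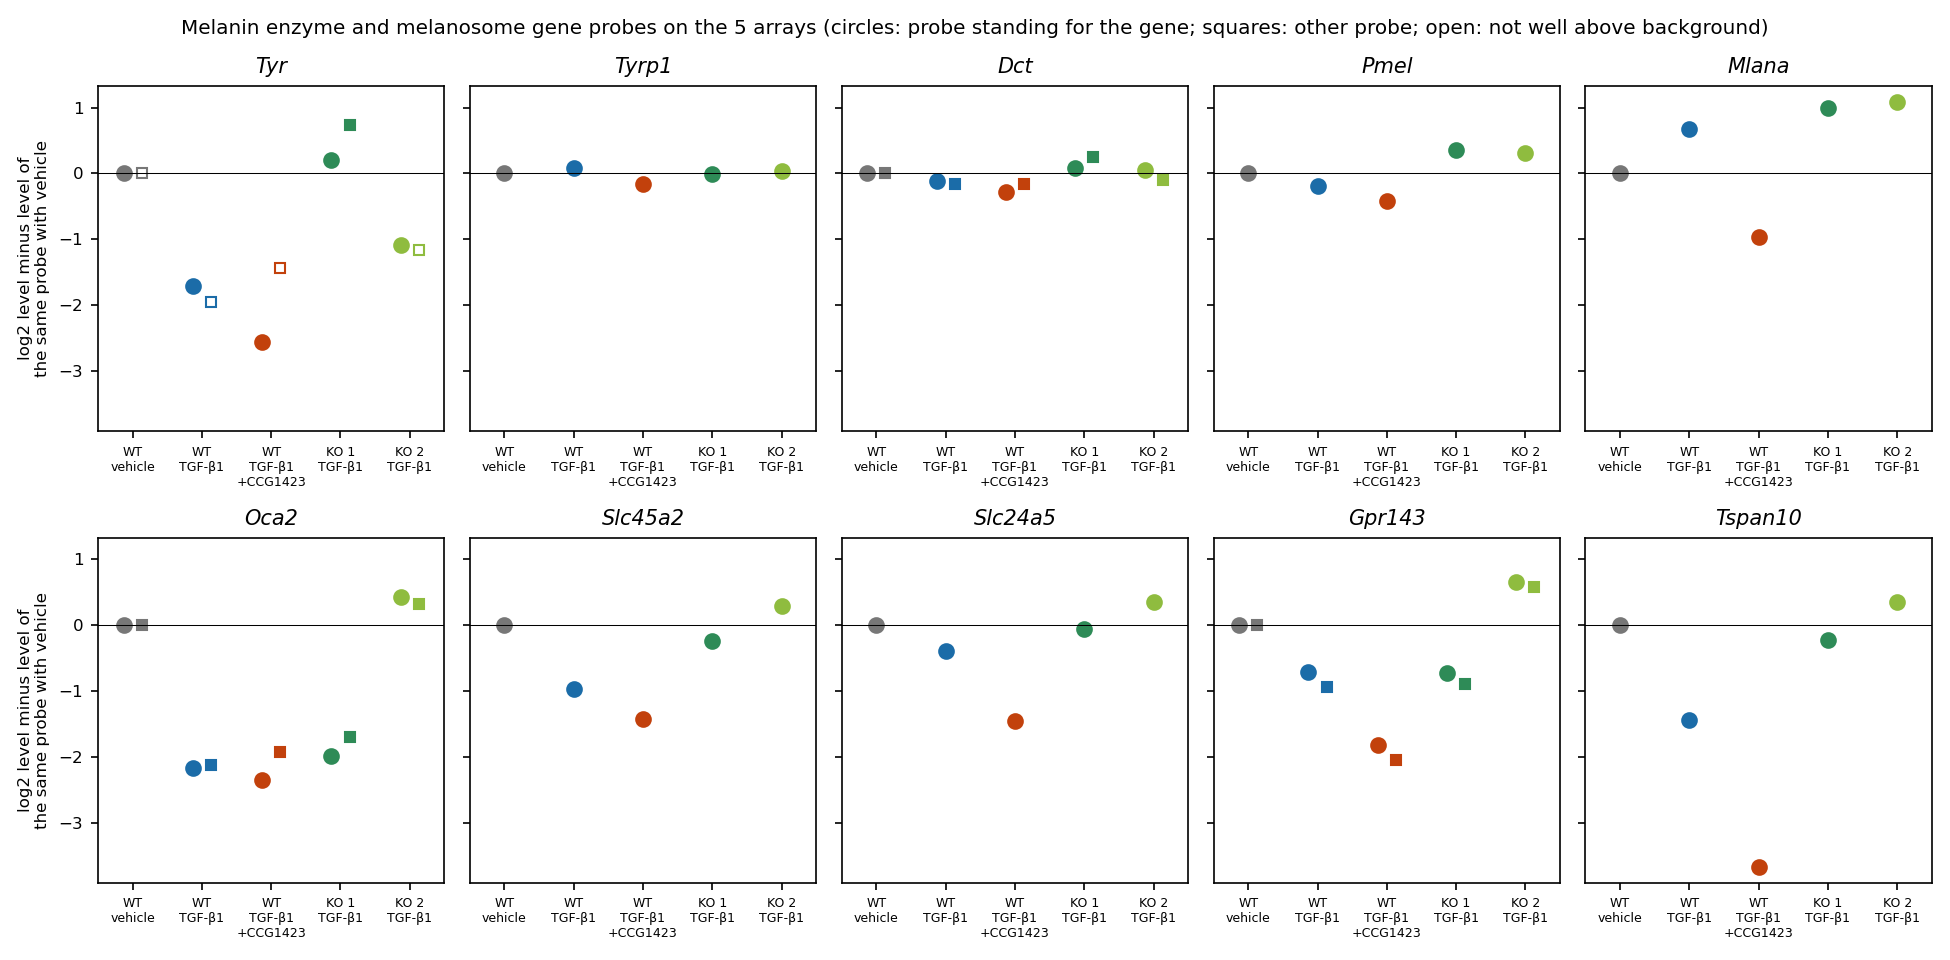
Log2 level of each probe minus its own level with vehicle (y axis) on the 5 arrays (x axis), 1 panel per gene; circles are the probe that stands for the gene, squares the other probe, and open symbols were not well above background. Tspan10 spans 4.03 and Tyrp1 0.25, and the array with CCG1423 is the lowest circle in every panel under this scaling.

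With TGF-β1 in wild-type cells, Tyr, Oca2 and Tspan10 were lower than with vehicle by 2-fold or more, and none of the 10 genes was higher by that much. Oca2 was 4.50-fold lower (log2 difference -2.17), Tyr 3.28-fold lower (-1.71) and Tspan10 2.72-fold lower (-1.45). Those 3 of 10 genes stand beside 3.15% of 14145 genes that were 2-fold or more lower in this comparison, and 4.91% that were higher. Only 2.08%, 2.47% and 2.83% of genes had a lower difference than Oca2, Tyr and Tspan10, in that order.

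Slc45a2 lay just short of the 2-fold line, at 1.97-fold lower (-0.98), and Gpr143 was 1.64-fold lower (-0.71) and Slc24a5 -0.39 on the log2 scale. The abundant enzymes and the fibril protein lay close to 0, with log2 differences of 0.08 for Tyrp1, -0.11 for Dct and -0.19 for Pmel. Mlana was the gene of the set that lay higher with TGF-β1 by more than 0.1, by 1.60-fold (0.68). The differences of 8 genes were below 0 and those of 2 above it, where 42.8% of all genes were above 0. The median of the 10 was -0.55, beside -0.05 over all genes. Each side is 1 array, with no replicates of its own. As the only measure of spread within a group, the 2 knockout clones differed from each other by 2.42 for Oca2, -1.30 for Tyr and 0.58 for Tspan10. The differences of Tyr and Tspan10 with TGF-β1 exceeded that spread, and that of Oca2 did not. So did the small differences of Tyrp1, Dct and Pmel, for which the clones differed by 0.04, -0.03 and -0.04. Exceeding a gap between 2 clones thus does not by itself tell a response from noise. In an alternative limma fit that lends the clones' spread to the single arrays, none of the 10 was called with TGF-β1, where 2.44% of all genes were.

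When CCG1423 was added to TGF-β1, Tspan10, Mlana, Gpr143 and Slc24a5 were lower by 2-fold or more. Of these, Tspan10 was also 2-fold lower with TGF-β1 alone, and the difference between both responses was not tested. Tspan10 was 4.69-fold lower (log2 difference -2.23), Mlana 3.14-fold lower (-1.65), Gpr143 2.16-fold lower (-1.11) and Slc24a5 2.10-fold lower (-1.07). None was higher. The 4 of 10 genes stand beside 6.94% of 14057 genes that were 2-fold or more lower, and 5.97% that were higher. Tspan10 ranked lowest, with 2.41% of all genes below it.

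Tyr differed by -0.85 on its representing probe, while its dim probe, below background on both arrays, had the opposite sign. The Oca2 probes also disagreed in sign, at -0.18 and 0.20. Slc45a2 was lower by 0.45 on the log2 scale, Tyrp1 by 0.25, Pmel by 0.23 and Dct by 0.17. All 10 differences were below 0 on the representing probes under each scaling, though not for Oca2 after normexp correction or with the mean of its probes. Their median was -0.65, beside -0.05 over all genes, of which 46.3% were above 0. The clones differed from each other by 0.10 for Mlana, 0.42 for Slc24a5, 0.58 for Tspan10 and 1.38 for Gpr143. The differences of Mlana, Slc24a5 and Tspan10 exceeded that spread, and that of Gpr143 did not. As with TGF-β1 alone, this does not by itself tell a response from noise. In the limma fit that lends the clones' spread to the single arrays, Tspan10 was called (adjusted p = 0.0214), as were 1.98% of all genes.

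Set against vehicle, the array with both agents was 2-fold or more lower for 6 of the 10 genes, where 8.02% of all genes were. The log2 differences were -3.68 for Tspan10, -2.56 for Tyr, -2.35 for Oca2, -1.82 for Gpr143, -1.47 for Slc24a5 and -1.43 for Slc45a2. Mlana, higher with TGF-β1 alone, was at -0.97. Pmel (-0.42), Dct (-0.29) and Tyrp1 (-0.17) lay within 1.5-fold of vehicle. These values share arrays with both comparisons above.

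In knockout cells with TGF-β1, 9 of the 10 genes had a mean level above the wild type with TGF-β1, as did 49.5% of all genes. None of the 10 passed limma's test with Benjamini-Hochberg adjustment over 13729 genes. In that test 32 genes, or 0.233%, were called. Tspan10 came closest. Its fitted log2 difference was 1.51 with an SE of 0.32 and a limma adjusted p of 0.128, and it was higher by 2.32-fold in clone 1 and 3.48-fold in clone 2. It was the 1 gene of the 10 that was 2-fold or more higher in both clones, as were 0.699% of all genes; in the authors' deposited table, which is scaled differently, clone 1 fell short of 2-fold. At an unadjusted p under 0.05, 3 of the 10 were counted, Tspan10, Slc45a2 and Tyr, beside 5.78% of all genes.

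Tyr, Oca2 and Gpr143 differed in size between the clones. Tyr was 3.78-fold higher in clone 1 and 1.54-fold in clone 2 (fitted log2 difference 1.27, SE 0.49, limma adjusted p = 0.708). Oca2 was 1.13-fold higher in clone 1 and 6.05-fold in clone 2 (1.38, SE 0.79, limma adjusted p = 1.00). Slc45a2 was 1.66-fold and 2.42-fold higher (1.00, SE 0.32, limma adjusted p = 0.489), and Gpr143 was at -0.01 in clone 1 and 2.58-fold higher in clone 2. In clone 1, Tyr and Tspan10 were 2-fold or more higher, beside 2.77% of all genes. In clone 2 these were Oca2, Slc45a2, Gpr143 and Tspan10, beside 2.76% of all genes.

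Pmel gave log2 differences of 0.54 and 0.51 in the clones, Mlana 0.32 and 0.41, Slc24a5 0.33 and 0.75 and Dct 0.19 and 0.16, and Tyrp1 lay at -0.09 and -0.05. The sign was the same in both clones for 9 of 10 genes, as it was for 64.9% of all genes. The median of the fitted differences was 0.61, with 0.32 in clone 1 and 0.68 in clone 2, beside -0.01 over all genes. In the deposited table, 8 rather than 9 means were above 0, since Dct turned negative, and 4 genes rather than 8 were above 0 in clone 1. Tmsb4x knockout and TGF-β1 response share the array of wild-type cells with TGF-β1, so a low value there enters both comparisons with opposite sign.

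**Figure D3:**
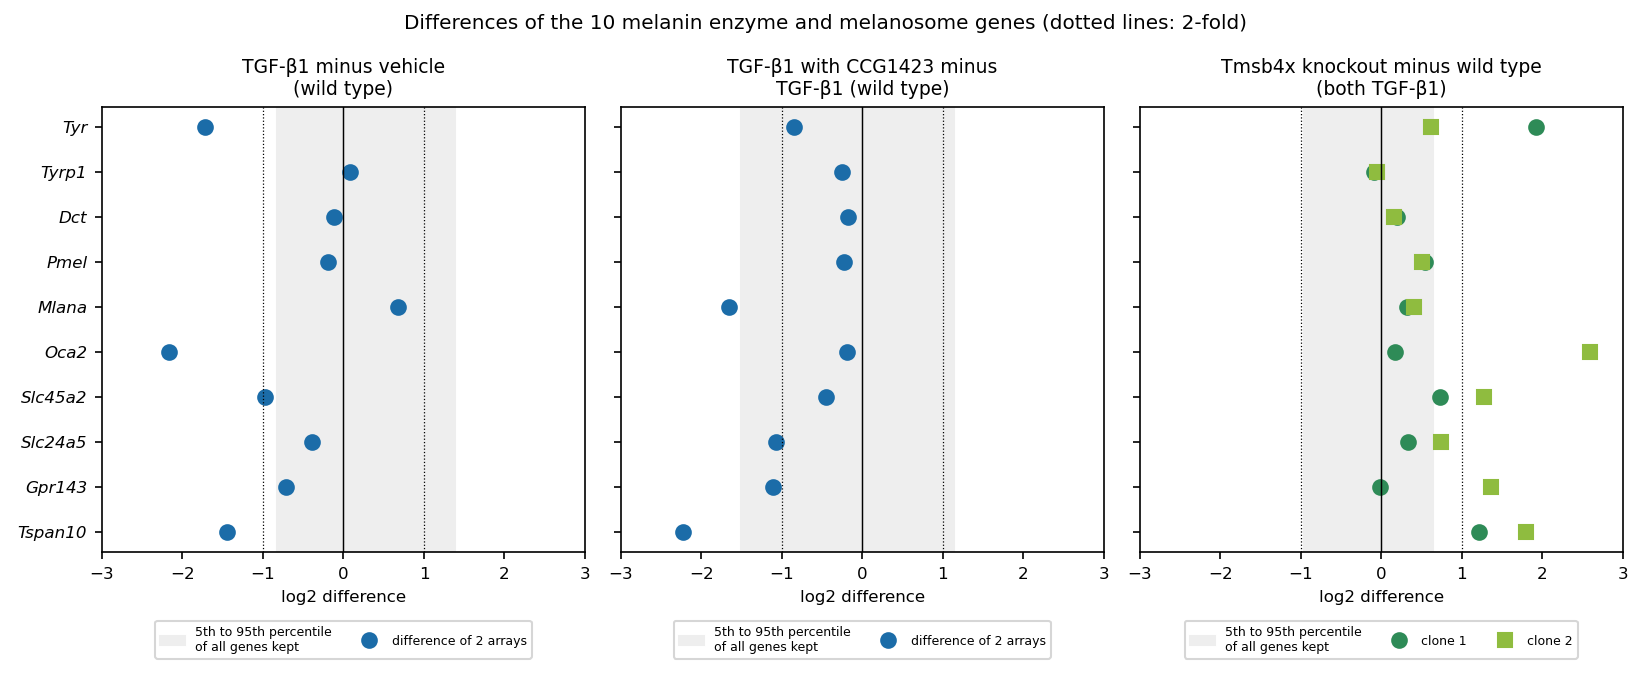
Log2 differences (x axis) of the 10 genes (y axis) in 3 comparisons. Circles in the third panel are clone 1 and squares clone 2, and dotted lines mark 2-fold. The grey band holds the 5th to 95th percentile of all genes kept. In the third panel that band is for the mean of the clones (-0.95 to 0.64). For single clones these percentiles are -1.02 to 0.81 (clone 1) and -1.17 to 0.72 (clone 2). Tspan10 lies beyond the 2-fold lines in all 3 panels and in both clones, while Tyrp1 and Dct lie near 0.

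Compared with wild-type cells given vehicle, the clones with TGF-β1 lay within 1.5-fold of it in Tspan10, Slc24a5, Slc45a2, Pmel, Dct and Tyrp1. Tspan10 was at -0.23 in clone 1 and 0.35 in clone 2, Slc24a5 at -0.06 and 0.35, Slc45a2 at -0.24 and 0.30, and Pmel at 0.35 and 0.32. Mlana was higher in both, by 0.99 and 1.09. Oca2 was at -2.00 in clone 1 and 0.43 in clone 2, Tyr at 0.20 and -1.09, and Gpr143 at -0.72 and 0.66. In these 3 genes the clones thus lay on opposite sides of vehicle, though in the deposited table Tyr was below vehicle in both. Opposite sides were also seen, within 1.5-fold of vehicle, in Tspan10, Slc24a5, Slc45a2 and Tyrp1 (-0.01 and 0.03). At 2-fold, Oca2 was lower in clone 1, where 4.87% of all genes were lower. In clone 2, Tyr was lower (3.49% of all genes) and Mlana higher (6.65%).

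Between the clones themselves, Oca2 was 5.37-fold and Gpr143 2.60-fold higher in clone 2, and Tyr 2.45-fold lower. Of 13849 genes, 4.23% were 2-fold or more higher and 3.26% lower in clone 2. Clone 1 was the low one for Oca2 and Gpr143 and the high one for Tyr. Tspan10, Slc45a2 and Slc24a5 were higher in clone 2 by 0.58, 0.54 and 0.42. Tyrp1, Dct, Pmel and Mlana differed between clones by 0.10 or less in size. With quantile normalization these 4 differences were 0.30, 0.12, 0.20 and 0.37, and under the deposited scaling they were 0.36, 0.29, 0.28 and 0.42, with the signs of Dct and Pmel turned in both. Written as mean ± SD over the clones (n = 2), the levels were 0.47 ± 0.92 for Tyr, -1.17 ± 1.71 for Oca2, 3.55 ± 0.97 for Gpr143 and 3.43 ± 0.41 for Tspan10.

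Of the regulators of these genes, Mitf and the receptor gene Mc1r were lower with CCG1423. Mitf had levels of 6.59 with vehicle, 6.59 with TGF-β1, 5.36 with CCG1423 added, 6.80 in clone 1 and 6.89 in clone 2. It differed with TGF-β1 by less than 0.01 and was 2.34-fold lower with CCG1423, with differences of -0.94 and -0.97 on its other 2 probes. Mc1r, the melanocortin receptor, had levels of 6.16, 5.88, 4.73, 5.80 and 5.26, and was 2.22-fold lower with CCG1423. Sox10, the neural crest factor that acts on Mitf, had levels of 5.68, 6.20, 6.04, 5.94 and 6.14. Thus Mitf and Mc1r were lowest on the array where the 10 genes were lowest, and Sox10 was not. Whether their lower RNA has a part in the lower levels of the 10 genes was not tested.

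Among 15 measured melanocyte regulators and receptors, of 16 listed, Lef1, a partner of β-catenin, was 3.39-fold higher with TGF-β1, beside 4.91% of all genes at 2-fold or more higher, and none was lower by 2-fold. With CCG1423 added, Mitf and Mc1r, 2 of the 15, were 2-fold or more lower, beside 6.94% of all genes, and none was higher. The medians were -0.00 with TGF-β1, -0.16 with CCG1423 and -0.13 for the knockout. None of the 15 was 2-fold or more higher or lower in both clones, and limma called none. Kit, the receptor of stem cell factor, was 3.13-fold higher in clone 1 and not well above background in clone 2.

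Of 28 genes of melanosome biogenesis and transport, none differed 2-fold with TGF-β1 (median -0.08). With CCG1423, Ap3d1, a subunit of the adaptor that sorts cargo to melanosomes, was 2.86-fold lower, and Rab27a, the GTPase that tethers melanosomes to the actin motor, was 2.36-fold lower, though its other probe differed by only -0.47. These 2 of 28 genes are a share near the 6.94% of all genes that were 2-fold lower. The median was 0.09. In the knockout no gene was 2-fold higher or lower in both clones, limma called none, and the median was 0.17.

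Of 16 other genes of ion, metal and metabolite transport, Slc7a11, the cystine transporter, was 3.62-fold lower with TGF-β1 and 6.54-fold higher when CCG1423 was added. Its other probe, well above background on only 2 arrays, had log2 differences of -1.47 and 1.39. Mfsd12, a lysosomal and melanosomal cysteine importer, stood well above background with CCG1423 and on no other array, at least 8.42-fold higher than with TGF-β1 alone. Mcoln3, a cation channel, was 2.23-fold lower with CCG1423. With TGF-β1, 1 of 15 measured genes was thus 2-fold lower, beside 3.15% of all genes. With CCG1423, 2 of 16 were higher and 1 lower, beside 5.97% and 6.94% of all genes. The medians were -0.08 with TGF-β1, 0.03 with CCG1423 and 0.19 for the knockout, in which no gene was 2-fold higher or lower in both clones and limma called none. Thus the medians of the 3 lists lay within 0.2 of 0 in all 3 comparisons, and those of the 10 genes did not. The signs of some lists leaned as well. With CCG1423, 12 of 15 regulators and receptors were below 0, but 13 of 28 biogenesis genes and 7 of 16 transport genes. In the knockout, 21 of 28 biogenesis genes and 12 of 15 transport genes were above 0, but 5 of 15 regulators, beside 49.5% of all genes.

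**Figure D4:**
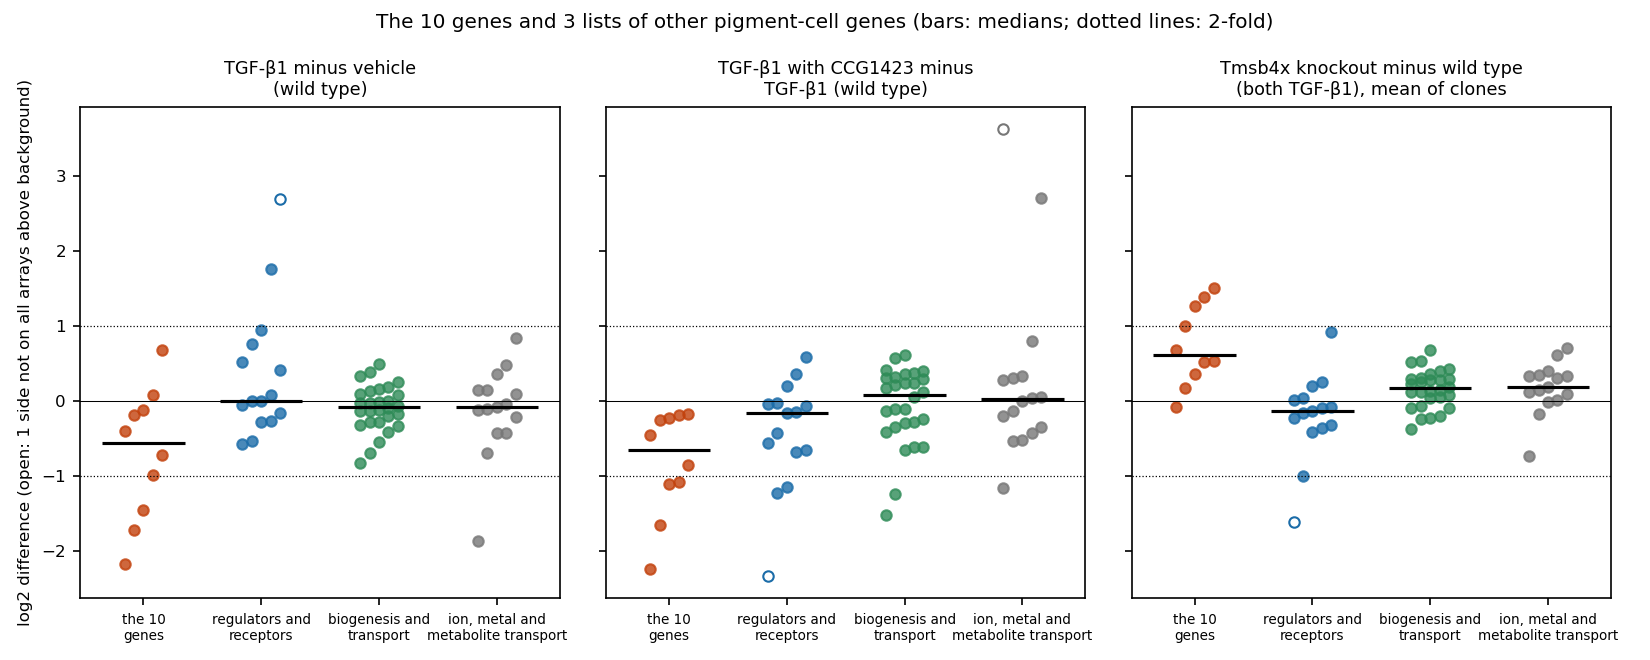
Log2 differences (y axis) of the 10 genes and of the 3 lists of other pigment-cell genes (x axis) in 3 comparisons; points are genes, bars are medians, dotted lines mark 2-fold, and open points were not well above background on one side. The medians of the 10 genes are -0.55, -0.65 and 0.61, and those of the lists lie between -0.16 and 0.19.

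The profile over the 5 arrays, centred on its own mean, was set against 12057 other genes for the 3 genes of the set with the widest ranges. The closest to Tspan10 were Apln (root mean square difference 0.38 on the log2 scale), Tet1 (0.51) and Gm10639 (0.54). Those closest to Oca2 were Mgll (0.24), Etv1 (0.42) and Nfatc2 (0.43), and those closest to Tyr were C1ql3 (0.32), Hs3st1 (0.37) and Gsta2 (0.38). The 5 points of each profile share arrays and scaling, and the likeness is a description. None of the 9 genes closest in profile is another of the 10.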

How the data were processed

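RNA of 5 B16F1 samples was hybridised to 1 array each. The intensity values are the processed signal of the authors' deposited scanner files, background-subtracted within each array per the file headers. The submitters' processing notes name Agilent Feature Extraction, version 12.0.3.1. Flags for signal well above background and for outlier spots come from the same software, per the file headers. The authors' deposited value table holds that intensity times a constant per array (log2 of -0.01, 0.12, 0.34, -0.17 and -0.08 in the order vehicle, TGF-β1, CCG1423, clone 1 and clone 2; column medians 26.9, 29.2, 27.5, 23.2 and 28.8). It is linear and not centred, and the rule behind the constants is unknown.

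Control spots (3671) and outlier spots (107 to 141 per array) were left out of the levels, and each array's 75th percentile was subtracted from log2 values. Matching to RefSeq accessions (GRCm38.p6 table) named 32988 of 56595 probes. Since the headers name an older build, no probe coordinates are given. The probe with the highest mean stands for a gene. A gene was kept where every array of 1 or more of the compared groups read it well above background. Where one side was not above background, the fold is a bound, set against that array's lowest signal well above background or the probe's own signal if higher.

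Single arrays were compared at 2-fold, with limma on the clones' spread as an alternative. For the knockout, limma 3.58.1 (R 4.3.3) was used (lmFit, then eBayes with trend, on 5 arrays in 4 groups, 1 residual degree of freedom from the 2 clones, Benjamini-Hochberg threshold 0.05), and the script was tested on simulated data. The lone wild-type arrays are assumed to vary like the clones. The p-values thus reflect the spread between 2 different clones, in which clonal and technical differences cannot be told apart. That spread was moderated by eBayes towards one shared over genes (9.34 total degrees of freedom for the knockout). A gene's own gap between clones therefore weighed little. For Dct the SD of the clones was 0.02 and limma's SE 0.39. The labels name no replicate culture of a clone. The headers place all arrays on 1 slide in 1 scan, so no batch could be fitted. The number of arrays limits the precision.

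The members, lists and tests were chosen with earlier results of these data known. Named were the 10 genes, Tmsb4x, Mitf, Sox10 and Mc1r, up to 3 genes per direction, list and comparison at 2-fold (in both clones for the knockout), and the 3 genes most like the 3 with the widest ranges. Kit was named after its values were seen. Normexp was planned on mean signals, which the files used here lack, and was run on median signals instead, a choice made after seeing the data.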

Additional observations from a re-analysis of the deposited data

How the results depend on the processing

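Scaling on the median or by quantiles, normexp on median signals, other filters, keeping outlier spots and another probe rule moved the counts and medians of the 10 genes by less than 1.5 times or the spread between clones, with these exceptions. With the mean of all probes, their median with CCG1423 added was -0.35 rather than -0.65. In the authors' deposited table, 0 rather than 1 gene was 2-fold higher in both clones, 0 rather than 1 was 2-fold lower in clone 2 than in clone 1, and the median between clones was 0.58 rather than 0.26 (0.44 by quantiles). Without a filter on dim probes, limma called 1 of the 10 for the knockout, Tspan10 (adjusted p = 0.000113), and 279 of 22907 genes in place of 32 of 13729. Leaving out each clone gave 2 to 4 genes higher and a median of 0.32 to 0.68; a lone clone has no residual degrees of freedom, so no test was made.

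Over all genes, limma's calls for the knockout ran from 0 (quantiles; mean of probes) through 1 (well above background on all arrays), 53 (median), 85 (normexp), 184 (no trend) and 220 (deposited table) to 279. Over all probes it called 146 of 30561. With the clones' spread applied to single arrays, limma called 345 genes and none of the 10 for TGF-β1 (Tspan10 adjusted p = 0.0766), and 279 genes with 1 of the 10 for CCG1423 (Tspan10, adjusted p = 0.0214). The deposited scaling moved the median of all genes to -0.18 with CCG1423, -0.20 for the knockout and 0.27 between clones. With it, the share of higher genes among those at 2-fold moved from 46.3% to 33.5% with CCG1423, from 39.6% to 23.4% for the mean of the knockout clones (64.0% without a filter on dim probes) and from 56.5% to 79.7% between clones.

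No paired analysis was possible because all titles carry replicate number 1 and 3 of the 4 groups have 1 array. The dim probe of Tyr was above background on 1 array and gives no order of the others.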
